A study of Mus musculus with 6 samples.

Results

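Immediate early genes are the first genes that a cell transcribes after it has been stimulated, and 32 of them, taken as a list of names, were followed here through 6 coronal brain sections. They made up 32 of the 32288 genes used and were all detected, with 797 UMIs for Sik1 at the low end and 42387 UMIs for Egr1 at the high end, summed over the sections. A UMI (unique molecular identifier) stands for 1 captured RNA molecule, and levels are given as CPM, the UMIs of a gene per 1000000 UMIs of the same region and section. The list was divided by what its members are known for into 6 neuron-selective genes (Npas4, Arc, Egr4, Nptx2, Bdnf and Homer1), 13 general stress-type genes that many cell types induce (Fos, Fosl2, Jun, Junb, Jund, Egr1, Btg2, Zfp36, Ier2, Ier5, Dusp1, Klf2 and Klf4) and 13 other inducible genes (Fosb, Egr2, Egr3, Nr4a1, Nr4a2, Nr4a3, Gadd45b, Gadd45g, Arl4d, Dusp5, Dusp6, Per1 and Sik1).

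The sections came from hemibrains of female mice in which human APOE3 (E3) or human APOE4 (E4) replaced the mouse Apoe gene, so that every animal, the young ones included, carried a human allele. There was 1 section of each of 6 groups, namely E4 5xFAD and E3 5xFAD at 12 months, E4 aged and E3 aged at 24 months, and E4 young and E3 young at 3 months. The 5xFAD transgenes are driven by Thy1 promoter elements, which act mainly in neurons, and give amyloid plaques. No 12-month section without 5xFAD was analysed here, so age and transgenes cannot be told apart in the comparison of 5xFAD with young. With 1 brain in each group, what happened to a single mouse before death and what its group did cannot be told apart either. According to the methods, mice were anaesthetised with isoflurane, bled and perfused with cold buffer before the hemisphere was frozen. The order of the mice, the time of day and the interval between cage and freezing are not given in the sources used here, and immediate early genes are known to respond to handling, novelty and anaesthesia within minutes.

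Most of these genes are transcribed little in resting neurons. Calcium entry through synaptic receptors and channels activates kinases that phosphorylate CREB and serum response factor already bound at their promoters, and transcription starts without new protein synthesis. The first products include transcription factors of the AP-1 family (Fos and Jun proteins), the zinc finger factors Egr1 to Egr4, the orphan nuclear receptors Nr4a1 to Nr4a3 and Npas4, which answers to neuronal depolarisation more selectively than the others. A second group of products acts outside the nucleus, such as Arc at synapses, the MAP kinase phosphatases of the Dusp family that end the signal, and the RNA-decay factors Zfp36 and Btg2. Fos, Jun, Egr1 and Ier2 are also induced by growth factors, mechanical stress and tissue dissociation in cells that are not neurons.

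The 14524 spots used held 20343701 to 37266232 UMIs per section, with medians of 10081.5 to 15360 UMIs per spot, and covered 75.9% to 86.0% of the tissue mask in 5 sections and 99.9% in E3 5xFAD. A Visium spot covers several cells, so fewer cells of a type and less RNA per cell cannot be told apart. A label that calls the material non-neuronal goes against the data, since the neuron markers were summed at 15364 and 13479 CPM in E4 and E3 5xFAD, 9597 and 11109 CPM in E4 and E3 aged, and 10041 and 10660 CPM in E4 and E3 young. The higher 5xFAD sums are not read as more neuronal RNA. They include Thy1, which rose in 5xFAD cortex over young (log2 fold change 2.79). The median of the 14 neuron markers there was -0.02. The E4 aged section held 195 cortical spots, against 736 to 956 in the other 5, with 3 spots of upper layers. The E4 5xFAD section stood apart in the genes that mark hypothalamic levels, as hypothalamic Oxt (oxytocin) stood at 2912 and 14.4 CPM in E4 and E3 5xFAD, 3.74 and 3.09 CPM in E4 and E3 aged, and 0.496 and 68.8 CPM in E4 and E3 young, whereas Pmch, the precursor of melanin-concentrating hormone, stood at 2.62 and 3826 CPM in E4 and E3 5xFAD, 4348 and 6971 CPM in E4 and E3 aged, and 1758 and 2727 CPM in E4 and E3 young.

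Promoter sequence is shown for the members with the largest hippocampal increases in aged sections that could be printed, because CREB is the factor through which calcium signals are best known to reach these genes. RefSeq (build GRCm38.p6) gave a promoter window, 250 bases before to 50 bases after the start, for 26 of the 32 members. The windows of 6 of these genes below end at the base before the start, overlap no exon of any RefSeq transcript, are written in the direction of transcription, and have the core of the cyclic AMP response element (TGACG, or CGTCA on the other strand) in capitals. They lie at chr12:85473640-85473889 (Fos, plus strand), chr1:134079156-134079405 (Btg2, minus strand), chr13:51846425-51846674 (Gadd45g, plus strand), chr11:101665291-101665540 (Arl4d, plus strand), chr6:85513590-85513839 (Egr4, minus strand) and chr8:84978749-84978998 (Junb, minus strand).
Fos: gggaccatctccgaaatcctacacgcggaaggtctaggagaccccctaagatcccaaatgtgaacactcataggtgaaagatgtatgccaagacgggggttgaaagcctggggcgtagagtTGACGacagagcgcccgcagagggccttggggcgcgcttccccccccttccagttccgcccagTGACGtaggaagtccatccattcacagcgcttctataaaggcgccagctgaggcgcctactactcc
Btg2: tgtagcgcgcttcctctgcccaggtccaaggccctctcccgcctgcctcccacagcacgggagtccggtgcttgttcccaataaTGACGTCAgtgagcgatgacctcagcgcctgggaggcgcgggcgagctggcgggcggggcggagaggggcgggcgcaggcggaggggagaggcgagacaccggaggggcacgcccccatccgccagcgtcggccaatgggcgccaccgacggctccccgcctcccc
Gadd45g: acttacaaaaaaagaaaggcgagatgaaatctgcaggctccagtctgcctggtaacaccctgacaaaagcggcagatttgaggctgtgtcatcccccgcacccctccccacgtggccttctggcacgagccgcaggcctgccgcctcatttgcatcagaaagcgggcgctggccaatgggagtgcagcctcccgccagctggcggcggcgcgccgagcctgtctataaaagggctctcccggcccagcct
Arl4d: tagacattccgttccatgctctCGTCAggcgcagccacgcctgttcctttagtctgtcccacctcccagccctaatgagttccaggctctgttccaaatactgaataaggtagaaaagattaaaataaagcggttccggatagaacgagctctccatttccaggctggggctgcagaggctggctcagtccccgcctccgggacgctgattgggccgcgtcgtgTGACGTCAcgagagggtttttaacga
Egr4: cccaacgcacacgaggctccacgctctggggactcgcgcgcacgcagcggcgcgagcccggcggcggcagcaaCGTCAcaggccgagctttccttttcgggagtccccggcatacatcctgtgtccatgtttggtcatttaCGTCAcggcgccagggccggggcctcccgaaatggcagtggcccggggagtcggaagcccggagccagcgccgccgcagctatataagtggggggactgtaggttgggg
Junb: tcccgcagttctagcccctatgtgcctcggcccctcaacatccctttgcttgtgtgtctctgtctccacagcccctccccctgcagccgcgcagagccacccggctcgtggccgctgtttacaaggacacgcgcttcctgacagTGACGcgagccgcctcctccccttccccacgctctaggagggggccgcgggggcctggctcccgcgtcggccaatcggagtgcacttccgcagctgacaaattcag

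The full element TGACGTCA, read on both strands because it is its own reverse complement, stood in the windows of Btg2, Arl4d and Dusp1, which is 3 of 26 members (11.5%), against 2.03% of 27025 genes with a window. Its core was present in 18 of 26 members (69.2%), against 23% of those genes, and each full element holds 2 overlapping cores. Fos had cores at 129 and 66 bases before the start, Egr4 at 177 and 109, and Gadd45g had none in these 250 bases. The windows of Npas4 and Fosb reach into exons of their longer transcripts and are not printed. In the Npas4 window the cores began 179 and 169 bases before the start, and in the Fosb window 60 bases before it. The CArG box, which serum response factor binds, was in the windows of Zfp36, Egr2 and Dusp5 (11.5% of members, against 1.81% of genes), and the AP-1 site TGACTCA or TGAGTCA was in 0 of 26 members, against 5.95% of genes.

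Spots were assigned to areas by clusters that were built without the 32 members, so an order of areas for a member is a description of these 6 sections. The order covers 10 areas with at least 100000 UMIs in every section, and among those left out are fiber tracts, upper layers, layers 4 and 5, and the habenula. The hippocampus led most orders. By mean CPM over the sections, 12 members were highest in the dentate gyrus, 11 in CA1, 5 in the meninges, 2 in cortical layers 6 and 6b, and 1 each in the hypothalamus and the ventricular system. The thalamus was lowest for 12 members, the hypothalamus for 7 and the ventricular system for 6.

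**Figure D1:**
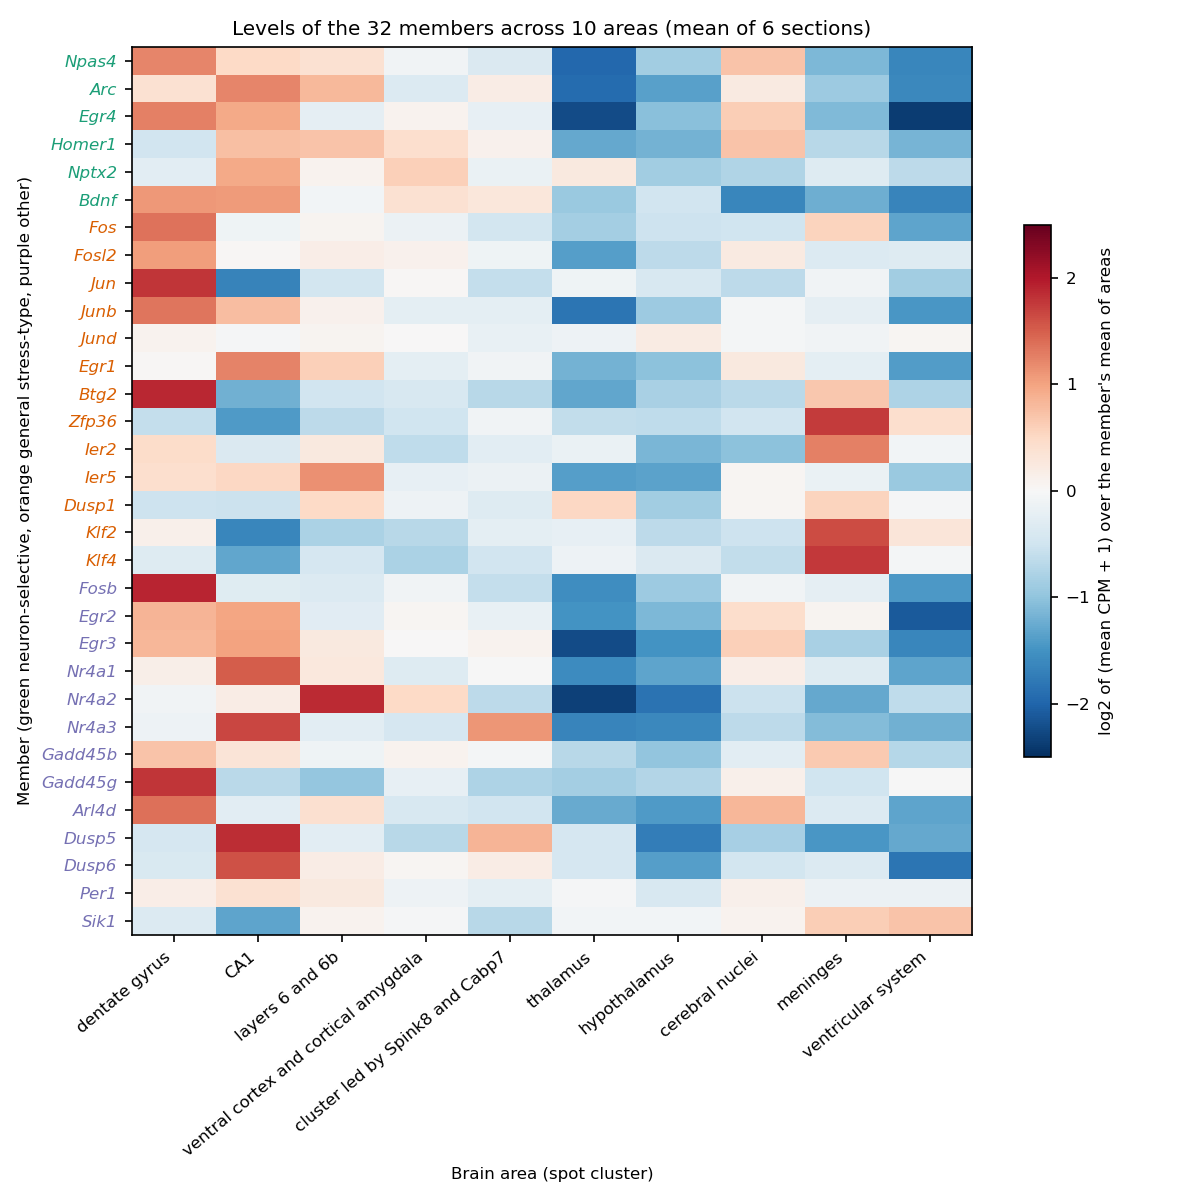
Mean level over 6 sections (log2 of CPM + 1, relative to the mean of each gene over the areas; colour) of the 32 members, in rows by class, in 10 brain areas, in columns. Members highest in the dentate gyrus and in CA1 fill the left columns, and 5 members are highest in the meninges.

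Among the AP-1 genes, Jun had a mean of 267 CPM in the dentate gyrus and was highest there in 6 of 6 sections, while in CA1 its mean was 23.5 CPM, its lowest among areas. Fosl2 was highest in the dentate gyrus in 5 sections (mean 31.3 CPM). Jund, the AP-1 gene known for steady expression, was nearly flat over the 10 areas, with the highest mean (hypothalamus, 212 CPM) 1.32 times the lowest, and the fiber tracts, outside this order, had a mean of 226 CPM. The largest range belonged to Nr4a2, a nuclear receptor used as a marker of deep cortex and claustrum, with a mean of 161 CPM in layers 6 and 6b, which was 20.4 times its mean in the thalamus and highest in 6 of 6 sections. Ier5, an early gene linked to heat shock factor signalling, was also highest in layers 6 and 6b in all 6 sections (mean 169 CPM).

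CA1 was the highest area in 6 of 6 sections for Nr4a1 (mean 294 CPM), Nr4a3 (101 CPM), Dusp5 (80.6 CPM) and Dusp6 (177 CPM), the last of these a phosphatase that switches off ERK. It was highest in 5 of 6 sections for Arc (mean 301 CPM), Egr1 (570.3 CPM) and Nptx2 (116 CPM), a secreted pentraxin that gathers AMPA receptors. For Homer1, a scaffold of metabotropic glutamate receptors, CA1 at 155 CPM and the cerebral nuclei at 152 CPM could not be ordered, since CA1 was above in 3 sections. Bdnf, the neurotrophin, was at 81.5 CPM in the dentate gyrus and 81.4 CPM in CA1, with the dentate gyrus above in 2 sections.

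Zfp36, Klf2 and Klf4, genes known for endothelial and stress responses, were highest in the meninges. Zfp36 (mean 33.3 CPM) and Klf2 (72.1 CPM) held that place in 6 of 6 sections and Klf4 (23.2 CPM) in 5. Ier2 was highest there in 4 sections (mean 54.7 CPM). Dusp1, the phosphatase induced by stress and glucocorticoids, averaged 107 CPM in the meninges and 105 CPM in the thalamus, and the meninges were above in only 2 sections.

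The 3 classes differed in how closely they followed neurons. All 6 neuron-selective members were higher in cortex than in fiber tracts, meninges and ventricular system, with median log2 ratios of 1.33, 1.26 and 1.81, and the 14 neuron markers had medians of 0.96, 0.82 and 1.66 against the same areas. Of the 13 general stress-type members, 9 were higher in cortex than in fiber tracts (median 0.84), 5 higher than in meninges (median -0.22) and 9 higher than in the ventricular system (median 0.37). The other inducible members lay between, with 11, 10 and 11 of 13 higher in cortex and medians of 0.99, 0.32 and 1.13. These are descriptions over the mean of 6 sections, with areas drawn from the same spots. The classes were chosen with earlier results of these data known, so the difference is no independent evidence for them.

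The place of the dentate gyrus in these orders was not constant from section to section. It was the highest area for 9 members in E4 5xFAD and 3 in E3 5xFAD, for 17 in E4 aged and 15 in E3 aged, and for 1 in E4 young and 4 in E3 young. Fos in the dentate gyrus stood at 139 and 10.2 CPM in E4 and E3 5xFAD, 585 and 681 CPM in E4 and E3 aged, and 20.6 and 12.1 CPM in E4 and E3 young. That was the highest of 10 areas in E4 5xFAD and both aged sections, the lowest of 10 in both young sections, and the 8th in E3 5xFAD. Npas4 in the dentate gyrus stood at 101 and 7.92 CPM in E4 and E3 5xFAD, 439 and 431 CPM in E4 and E3 aged, and 7.71 and 6.79 CPM in E4 and E3 young, so that E4 5xFAD lay between the aged sections and the other 3.

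CA1 moved less. Its Npas4 level was 59.7 and 15.0 CPM in E4 and E3 5xFAD, 187 and 273 CPM in E4 and E3 aged, and 29.3 and 33.7 CPM in E4 and E3 young. CA1 was the highest area for Npas4 in both young sections. It also ranked first in E3 5xFAD, but on few UMIs in 18 spots, so that place is uncertain. Arc, whose RNA travels to stimulated dendrites, had 221 and 207 CPM in E4 and E3 5xFAD, 326 and 424 CPM in E4 and E3 aged, and 287 and 341 CPM in E4 and E3 young in CA1, against 117 and 36.2 CPM in E4 and E3 5xFAD, 350.1 and 348 CPM in E4 and E3 aged, and 91.3 and 57.3 CPM in E4 and E3 young in the dentate gyrus. Jun was highest in the dentate gyrus in every section, with levels there of 188 and 234 CPM in E4 and E3 5xFAD, 434 and 361 CPM in E4 and E3 aged, and 164 and 221 CPM in E4 and E3 young. The hippocampal spots were 137 and 89 in E4 and E3 5xFAD, 95 and 98 in E4 and E3 aged, and 131 and 105 in E4 and E3 young, most of them in the dentate gyrus, and CA1 rested on 12 to 28 spots per section. The clusters led by Spink8 and Cabp7 (1076 spots) and by Slc9a4 and Homer3 (97 spots) stayed unnamed and lie outside this hippocampus. Leading genes of the larger cluster include the CA1 markers Spink8, Fibcd1 and Pou3f1, and no cluster was named CA2 and CA3. The hippocampal values thus describe mainly the dentate gyrus.

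Aged against young sections gave the largest set of changes among the members. In the hippocampus 19 of 30 members tested rose and none fell, in a fit that called 0.288% of all 11789 genes tested. The test was edgeR's quasi-likelihood test on the UMIs summed per section, with genotype and condition as additive terms over all 6 sections, 2 residual degrees of freedom and Benjamini-Hochberg adjusted p-values over all genes tested. In total it called 34 genes, of which 33 were higher in aged. The median log2 fold change was 1.28 for the members and near 0 for all genes tested, and 28 of 30 members were above 0. By class, 3 of 6 neuron-selective, 8 of 12 general stress-type and 8 of 12 other inducible members tested were called, with medians of 0.98, 1.25 and 1.28, so the classes were not separated by this comparison. Klf4 and Sik1 were too low in the hippocampus to be tested.

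**Figure D2:**
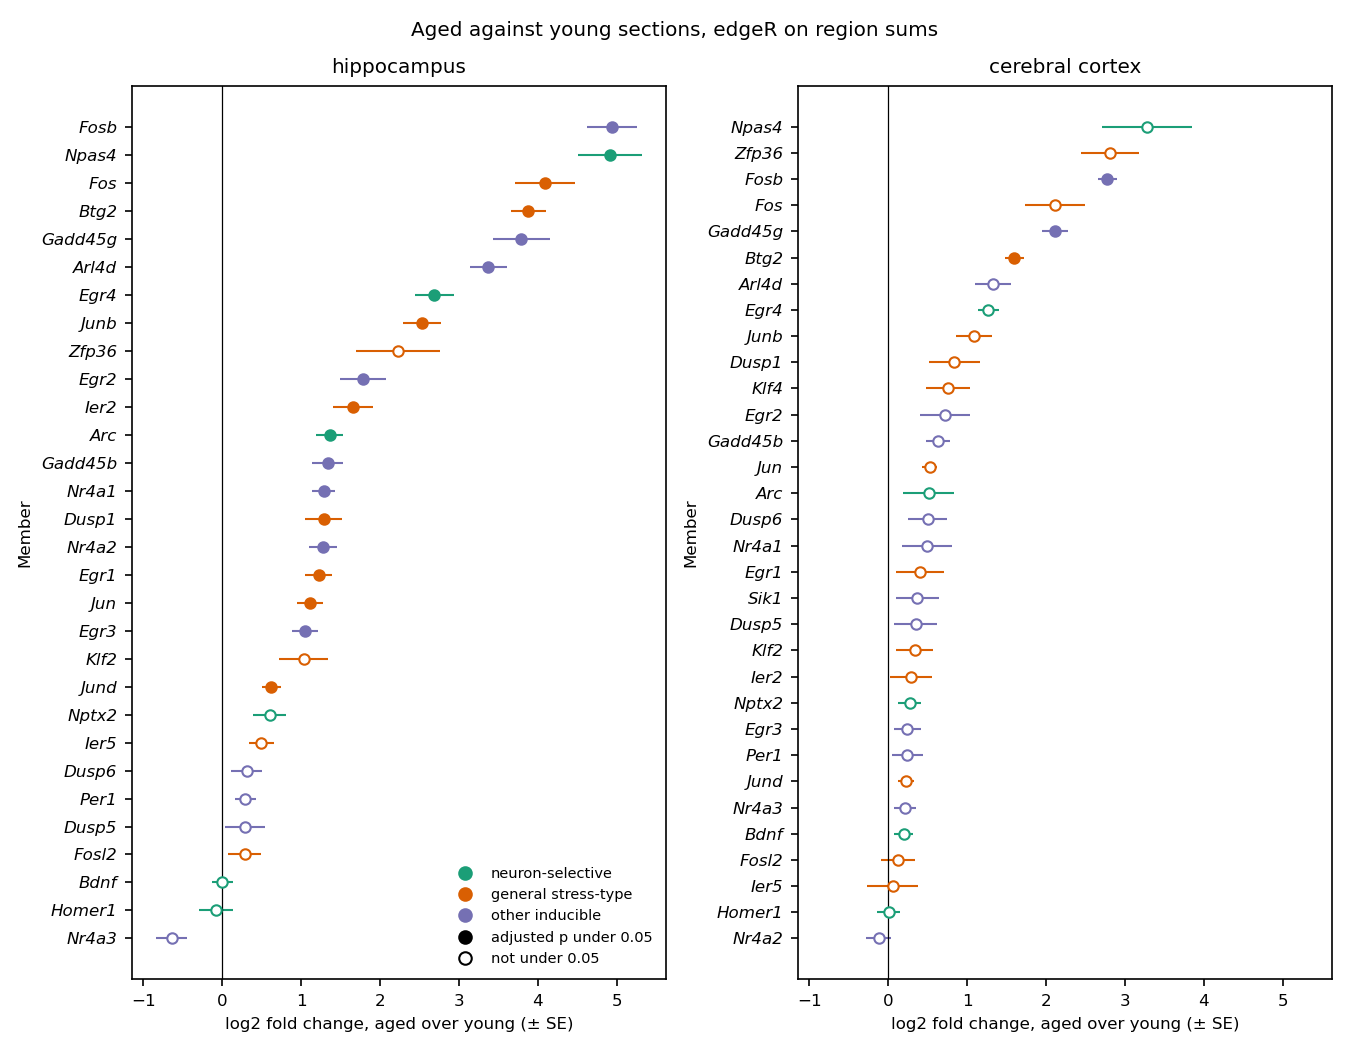
Log2 fold change of aged over young sections (x axis, ± SE) for the members tested in hippocampus and cerebral cortex, sorted by size, with colour for class and filled points for an adjusted p under 0.05. In the hippocampus 19 of 30 points are filled, all right of 0, and in the cortex 3 of 32.

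Npas4, the activity-dependent factor that recruits inhibitory synapses onto excited neurons, stood in the hippocampus at 90.8 and 9.57 CPM in E4 and E3 5xFAD, 397 and 385 CPM in E4 and E3 aged, and 14.0 and 13.9 CPM in E4 and E3 young. Both aged sections were far above the other 4, and E4 5xFAD was above the 3 that remained. The aged over young log2 fold change was 4.91 ± 0.40 (adjusted p = 3.18e-06). Arc, the synaptic organiser, had 143 and 75.7 CPM in E4 and E3 5xFAD, 346 and 370.1 CPM in E4 and E3 aged, and 148 and 132 CPM in E4 and E3 young, a smaller change on a higher base, with a log2 fold change of 1.36 ± 0.17 (adjusted p = 0.000414). Egr4, a zinc finger factor nearly confined to neurons, had 137 and 39.2 CPM in E4 and E3 5xFAD, 371 and 358 CPM in E4 and E3 aged, and 72.0 and 45.5 CPM in E4 and E3 young and a log2 fold change of 2.69 ± 0.25 (adjusted p = 1.27e-05). Of the other neuron-selective members, Nptx2, Bdnf and Homer1 were not called, and Homer1 was below 0.

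Among AP-1 genes, Fosb, whose stable truncated product accumulates with repeated stimulation, had 51.8 and 10.4 CPM in E4 and E3 5xFAD, 295 and 275 CPM in E4 and E3 aged, and 9.12 and 10.6 CPM in E4 and E3 young, and its aged over young log2 fold change was 4.94 ± 0.31 (adjusted p = 3.07e-07), the highest of the members. Fos had 112 and 13.1 CPM in E4 and E3 5xFAD, 509 and 540.2 CPM in E4 and E3 aged, and 35.9 and 28.9 CPM in E4 and E3 young, with 4.09 ± 0.37 (adjusted p = 1.25e-05). The levels of Fos in E3 5xFAD were below those of both young sections. Junb, a partner of Fos, had 211 and 57.4 CPM in E4 and E3 5xFAD, 802 and 655 CPM in E4 and E3 aged, and 139 and 116 CPM in E4 and E3 young, with 2.54 ± 0.24 (adjusted p = 1.68e-05). Jun had 145 and 182 CPM in E4 and E3 5xFAD, 368 and 266 CPM in E4 and E3 aged, and 124 and 171 CPM in E4 and E3 young, and Jund 168 and 164 CPM in E4 and E3 5xFAD, 242 and 255 CPM in E4 and E3 aged, and 159.5 and 162 CPM in E4 and E3 young. Their log2 fold changes were 1.11 ± 0.17 (adjusted p = 0.00387) for Jun and 0.62 ± 0.12 (adjusted p = 0.0233) for Jund, and for both genes the 2 aged sections were the highest of the 6.

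Of the zinc finger genes, Egr1, a widely used marker of recent activity, had 283 and 139 CPM in E4 and E3 5xFAD, 554 and 553 CPM in E4 and E3 aged, and 259 and 220.5 CPM in E4 and E3 young and rose by 1.22 ± 0.17 (adjusted p = 0.00168) on the log2 scale. Egr3 had 189 and 129 CPM in E4 and E3 5xFAD, 358 and 218 CPM in E4 and E3 aged, and 126 and 147 CPM in E4 and E3 young, with 1.05 ± 0.17 (adjusted p = 0.00612). Here E4 aged was well above E3 aged, which was nearest to E4 5xFAD. Egr2, the lowest of the family in UMIs, had 7.87 and 3.48 CPM in E4 and E3 5xFAD, 28.6 and 23.8 CPM in E4 and E3 aged, and 9.42 and 5.55 CPM in E4 and E3 young, with 1.79 ± 0.29 (adjusted p = 0.00612). The nuclear receptors split. Nr4a1 had 92.2 and 70.5 CPM in E4 and E3 5xFAD, 272 and 292 CPM in E4 and E3 aged, and 135 and 96.1 CPM in E4 and E3 young, and Nr4a2 23.6 and 21.8 CPM in E4 and E3 5xFAD, 97.2 and 58.0 CPM in E4 and E3 aged, and 33.4 and 30.0 CPM in E4 and E3 young, with log2 fold changes of 1.29 ± 0.15 (adjusted p = 0.000142) for Nr4a1 and 1.27 ± 0.18 (adjusted p = 0.00149) for Nr4a2. Nr4a3 was not called and was lowest in E4 aged, with 47.6 and 50.5 CPM in E4 and E3 5xFAD, 25.4 and 46.5 CPM in E4 and E3 aged, and 55.0 and 56.1 CPM in E4 and E3 young.

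Genes of growth arrest and RNA decay were among the largest changes. Btg2, which recruits deadenylases, had 67.6 and 18.3 CPM in E4 and E3 5xFAD, 447 and 272 CPM in E4 and E3 aged, and 25.8 and 24.4 CPM in E4 and E3 young, with 3.88 ± 0.22 (adjusted p = 1.61e-07). Gadd45g and Gadd45b are linked to stress kinase signalling and to activity-dependent DNA demethylation. Gadd45g had 191 and 31.3 CPM in E4 and E3 5xFAD, 446 and 404 CPM in E4 and E3 aged, and 33.4 and 32.2 CPM in E4 and E3 young and a log2 fold change of 3.79 ± 0.36 (adjusted p = 1.81e-05), and Gadd45b had 34.7 and 20.9 CPM in E4 and E3 5xFAD, 55.1 and 43.4 CPM in E4 and E3 aged, and 21.9 and 17.2 CPM in E4 and E3 young and 1.34 ± 0.20 (adjusted p = 0.00288). Arl4d, a small GTPase of the ARF family, had 91.2 and 26.1 CPM in E4 and E3 5xFAD, 292 and 217 CPM in E4 and E3 aged, and 27.0 and 23.9 CPM in E4 and E3 young, with 3.37 ± 0.24 (adjusted p = 5.27e-07). In all 4 genes both aged sections were above the other 4 sections, and E4 5xFAD was above both young sections.

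Dusp1, the stress-induced phosphatase, had 38.6 and 14.8 CPM in E4 and E3 5xFAD, 81.0 and 96.7 CPM in E4 and E3 aged, and 43.8 and 29.4 CPM in E4 and E3 young in the hippocampus, with 1.29 ± 0.23 (adjusted p = 0.0171). Ier2, an early gene of unspecific induction, had 21.5 and 6.09 CPM in E4 and E3 5xFAD, 55.6 and 50.7 CPM in E4 and E3 aged, and 20.7 and 13.3 CPM in E4 and E3 young, with 1.66 ± 0.25 (adjusted p = 0.00389). Ier5 was not called, at 136 and 104 CPM in E4 and E3 5xFAD, 103 and 124 CPM in E4 and E3 aged, and 85.7 and 75.0 CPM in E4 and E3 young. Leaving out 1 section at a time gave 16 to 21 members, and a fit of the 4 aged and young sections alone, which share a prefix in their deposited names, called 19 of 30, including every one of the 19 named here. DESeq2 called 11.

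**Figure D3:**
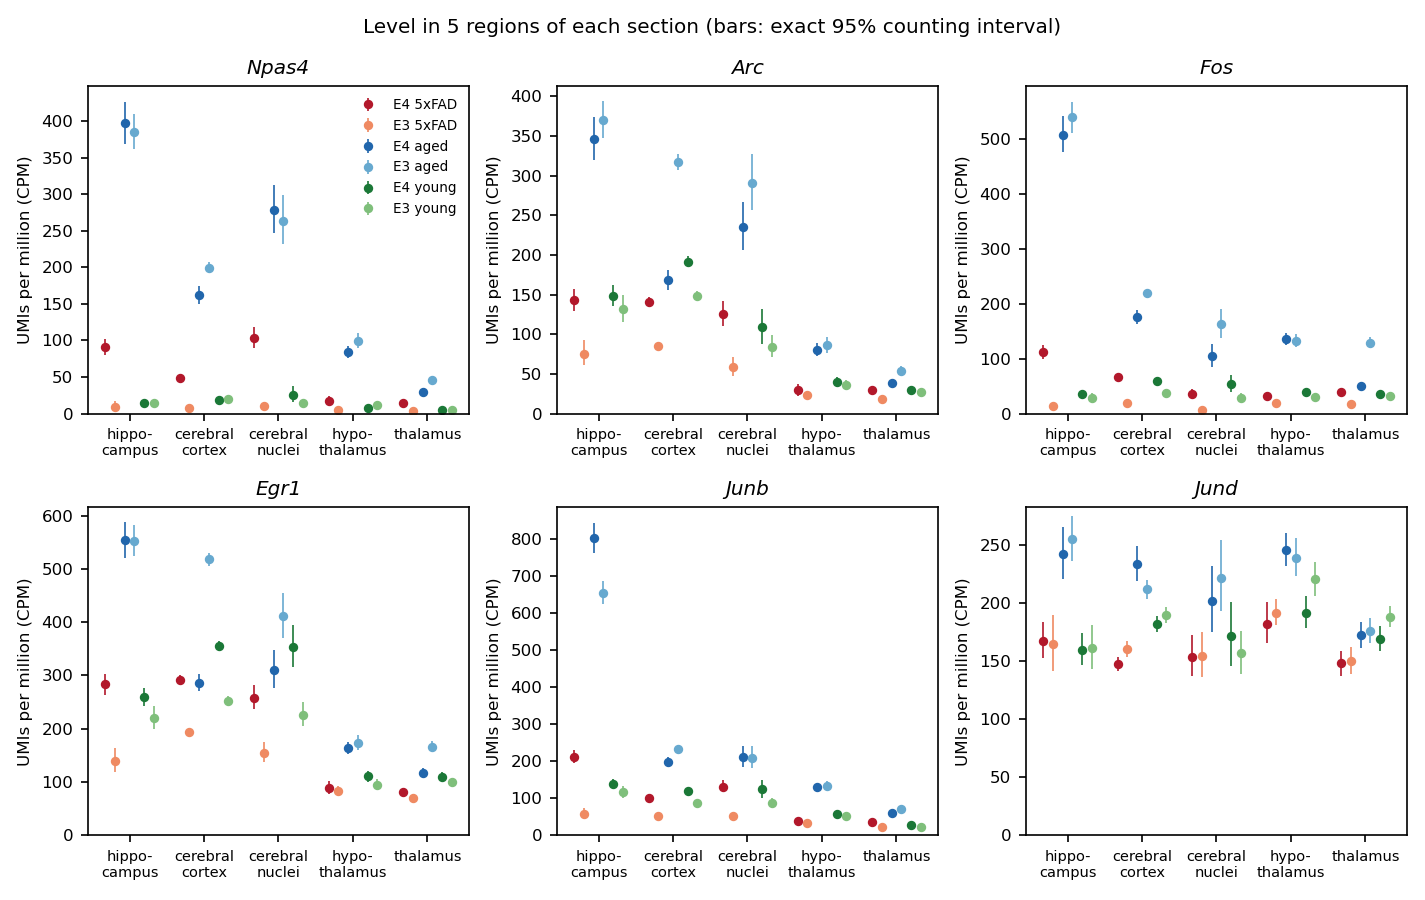
CPM (y axis) of Npas4, Arc, Fos, Egr1, Junb and Jund in 5 regions (x axis), 1 point per section with its exact 95% counting interval. In the hippocampus, Npas4 stands at 397 and 385 CPM in E4 and E3 aged and at 14.0 and 13.9 CPM in E4 and E3 young, and Jund stays between 159.5 and 255 CPM.

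The share of hippocampal spots with an Npas4 UMI followed the levels. After every spot was thinned to 5000 UMIs and shallower spots were left out, Npas4 was found in 41 of 137 spots in E4 5xFAD (29.9%) and 3 of 79 in E3 5xFAD (3.80%), in 72 of 90 in E4 aged (80.0%) and 75 of 98 in E3 aged (76.5%), and in 8 of 131 in E4 young (6.11%) and 5 of 104 in E3 young (4.81%). Exact binomial 95% intervals ran from 70.2% to 87.7% in E4 aged and from 2.67% to 11.7% in E4 young, and cover counting error only. Unthinned shares were 77.4% and 11.2% in E4 and E3 5xFAD, 88.4% and 94.9% in E4 and E3 aged, and 22.9% and 13.3% in E4 and E3 young. Meningeal spots hold neuronal RNA as well, as the neuron markers were higher in cortex by a median log2 ratio of only 0.82. Their shares are thus no measure of background alone. Thinned shares for Npas4 there were 5.56% and 4.88% in E4 and E3 5xFAD and 20.7% and 29.5% in E4 and E3 aged. In E4 and E3 young they were 3.03% and 7.69%. The hippocampal shares in E3 5xFAD and both young sections were near the meningeal ones at this depth. In CPM of all UMIs, CA1 was the highest area for Npas4 in these sections, with 29.3 and 33.7 CPM in E4 and E3 young and 15.0 CPM in E3 5xFAD. The E3 5xFAD value rests on few UMIs in 18 spots. How much of these shares is background was not tested. Arc was found in 53.3% and 26.6% of hippocampal spots in E4 and E3 5xFAD, 72.2% and 74.5% in E4 and E3 aged, and 45.0% and 38.5% in E4 and E3 young.

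In the cerebral cortex the same comparison called 3 of 32 members, and these were the only 3 of 14960 genes tested that passed (0.0201%). Fosb had 10.9 and 9.69 CPM in E4 and E3 5xFAD, 71.2 and 67.1 CPM in E4 and E3 aged, and 10.9 and 8.88 CPM in E4 and E3 young, with a log2 fold change of 2.78 ± 0.12 (adjusted p = 0.000479). Gadd45g had 39.6 and 17.3 CPM in E4 and E3 5xFAD, 101 and 67.3 CPM in E4 and E3 aged, and 21.9 and 16.1 CPM in E4 and E3 young, with 2.11 ± 0.16 (adjusted p = 0.00996), and Btg2 had 16.1 and 11.1 CPM in E4 and E3 5xFAD, 77.8 and 59.2 CPM in E4 and E3 aged, and 22.8 and 21.0 CPM in E4 and E3 young, with 1.60 ± 0.12 (adjusted p = 0.00996). In each of these genes both aged sections were above the other 4. The members' median was 0.50, with 31 of 32 above 0, against a median near 0 for all genes tested.

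Npas4 in the cortex had 48.1 and 7.97 CPM in E4 and E3 5xFAD, 162 and 199.6 CPM in E4 and E3 aged, and 18.0 and 19.8 CPM in E4 and E3 young, with a log2 fold change of 3.28 ± 0.57 (adjusted p = 0.616) that did not pass, although both aged sections exceeded all others. Fos had 66.0 and 19.7 CPM in E4 and E3 5xFAD, 175 and 219 CPM in E4 and E3 aged, and 59.5 and 37.4 CPM in E4 and E3 young, with 2.11 ± 0.38 (adjusted p = 0.657). Arc had 141 and 85.2 CPM in E4 and E3 5xFAD, 168 and 317 CPM in E4 and E3 aged, and 192 and 148 CPM in E4 and E3 young, so that E4 aged lay below E4 young while E3 aged was the highest, and Egr1 had 291 and 194 CPM in E4 and E3 5xFAD, 286 and 518 CPM in E4 and E3 aged, and 355 and 252 CPM in E4 and E3 young, with E4 aged below E4 young as well. Nr4a1 (82.4 and 52.7 CPM in E4 and E3 5xFAD, 119 and 214 CPM in E4 and E3 aged, and 143 and 96.4 CPM in E4 and E3 young), Dusp1 (67.1 and 35.8 CPM in E4 and E3 5xFAD, 102 and 185 CPM in E4 and E3 aged, and 89.3 and 72.5 CPM in E4 and E3 young) and Ier5 (149.6 and 98.1 CPM in E4 and E3 5xFAD, 68.5 and 142 CPM in E4 and E3 aged, and 112 and 91.2 CPM in E4 and E3 young) also had their highest or second highest level in E3 aged. Without the E4 aged section, with its 195 cortical spots, 16 members were called, without E3 aged 12, 9 in each fit without a 5xFAD section, and without E4 young 1. Of the 195 E4 aged spots, 153 lay in ventral cortex and cortical amygdala, 8 in layers 4 and 5 and 3 in upper layers. In E3 aged these were 178, 246 and 142 spots. The cortical levels of E4 aged thus come from another mix of areas, whose part in the values of Arc, Egr1 and Ier5 was not tested. With equal numbers of spots drawn per cluster from every section, 9 members were called.

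Outside cortex and hippocampus the same members returned. In the thalamus 4 of 32 were called (0.156% of genes), namely Fosb (log2 fold change 3.42), Npas4 (2.97), Btg2 (1.74) and Junb (1.51). Thalamic Npas4 had 15.0 and 3.21 CPM in E4 and E3 5xFAD, 29.4 and 46.2 CPM in E4 and E3 aged, and 4.30 and 5.35 CPM in E4 and E3 young. In the hypothalamus 11 of 32 were called (0.146%), with Npas4 (3.21), Fosb (2.35), Fos (1.99), Egr4 (1.67) and Btg2 (1.64) ahead of Junb, Arc, Gadd45g, Dusp1, Nr4a1 and Egr1. Hypothalamic Npas4 had 17.4 and 5.48 CPM in E4 and E3 5xFAD, 84.4 and 99.2 CPM in E4 and E3 aged, and 8.18 and 11.9 CPM in E4 and E3 young, and Arc had 29.2 and 23.8 CPM in E4 and E3 5xFAD, 80.1 and 86.3 CPM in E4 and E3 aged, and 39.7 and 35.8 CPM in E4 and E3 young. No member was called there without E3 young and 1 without E4 young, so this count rested on the young sections, and with equal spots per cluster 5 of the 11 were called.

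In the cerebral nuclei, which include the striatum and amygdalar nuclei, 9 members were called (0.222%). Npas4 led with 3.80 and had 103 and 10.2 CPM in E4 and E3 5xFAD, 279 and 264 CPM in E4 and E3 aged, and 25.5 and 13.9 CPM in E4 and E3 young, followed by Gadd45g (1.90), Fosb (1.77), Fos (1.76), Arl4d (1.64), Arc (1.42), Egr4 (1.32), Dusp1 (1.31) and Junb (0.98). Arc had 125 and 58.6 CPM in E4 and E3 5xFAD, 235 and 291 CPM in E4 and E3 aged, and 109 and 84.3 CPM in E4 and E3 young. In the fiber tracts edgeR called 0 of the 12 members tested (0.191% of genes called), 4 of them with an unadjusted p under 0.05. The thalamic count was 13 without E4 aged, 9 without E4 5xFAD, and 7 without E3 5xFAD or without E4 young. Of the 9 calls in the cerebral nuclei, 2 were called by DESeq2 and 5 without E3 aged. Beside the cerebral nuclei calls, 7 of 10 oligodendrocyte markers fell in aged sections (median -0.59), whose part was not tested. DESeq2 called 15 member changes over these 4 regions and 3 comparisons, where edgeR called 28.

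Among other gene lists, blood moved with the aged sections. The hemoglobin genes, which mark blood left in the vessels, rose in aged hippocampus (4 of 4 tested, median log2 fold change 3.31, with Hba-a1 at 4.90), in thalamus (4 of 4, median 3.86) and in cerebral nuclei (3 of 3, median 4.28), and also in the fiber tracts (2 of 2, median 3.28), while 0 of 4 were called in the cortex (median 0.25) or the hypothalamus (median 1.81). Summed blood genes stood in the hippocampus at 12.2 and 6.96 CPM in E4 and E3 5xFAD, 165 and 435 CPM in E4 and E3 aged, and 11.9 and 43.9 CPM in E4 and E3 young. In the cortex they stood at 12.2 and 16.2 CPM in E4 and E3 5xFAD, 109.7 and 193 CPM in E4 and E3 aged, and 160.0 and 96.1 CPM in E4 and E3 young. They were thus highest in both aged hippocampi, but the 2 young cortices overlapped with the aged ones, and the part of residual blood in the changes of the members was not tested.

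**Figure D4:**
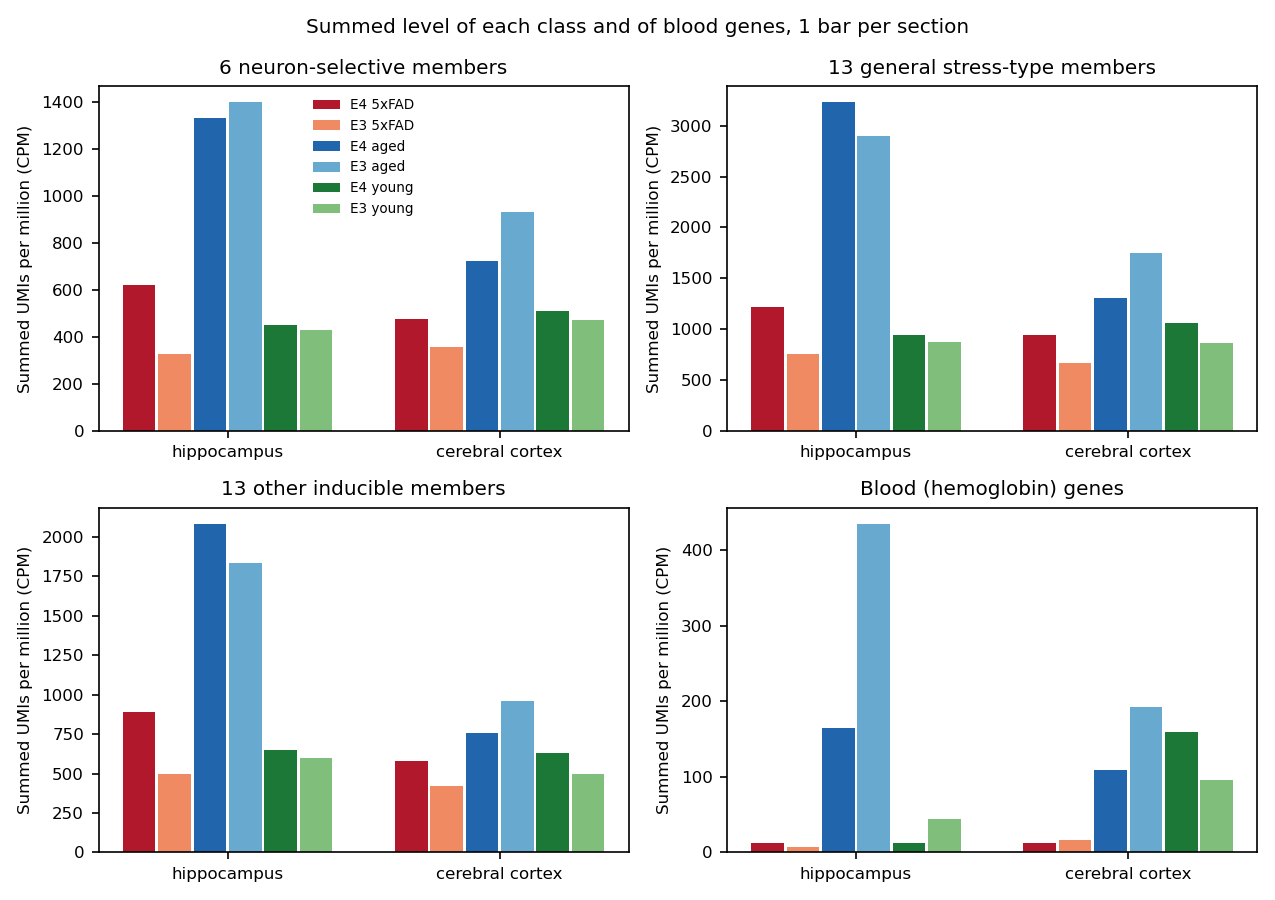
Summed CPM (y axis, from 0) of the 3 member classes and of the hemoglobin genes in hippocampus and cerebral cortex, 1 bar per section. All 3 classes are highest in the aged hippocampi, where blood genes sum to 165 and 435 CPM in E4 and E3 aged, against 11.9 and 43.9 CPM in E4 and E3 young.

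A list named late activity genes had 27 members tested in the hippocampus, with a median of 0.15. From it 2 genes rose in aged sections, Rgs2 (2.46 ± 0.17), a regulator of G protein signalling, and Ptgs2 (2.17 ± 0.19), the inducible cyclooxygenase. When these 2 genes appear after a stimulus was not measured here, so their rise is not read as a late response. Rgs2 was also called in the cerebral nuclei (1.16 ± 0.17). In the hippocampus 0 of 18 heat shock genes (median -0.02) and 0 of 14 glucocorticoid-responsive genes (median -0.12) were called by edgeR, nor were the neuron markers (0 of 14, median 0.03) or the genes that follow RNA quality (0 of 17, median -0.10). Of 17 clock genes Ciart alone was called (1.54 ± 0.27). Microglia markers were called in the thalamus (5 of 13, median 0.72) and in 0 of 13 in the hippocampus (median 0.24). Whether the mice were killed at different times of day or after different handling cannot be told apart from their groups.

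The members called in 5xFAD sections against young, 5 over the 6 regions, were all lower. Over both genotypes, 0 of 30 members were called in the hippocampus by edgeR (0.509% of genes called), 14 of them with an unadjusted p under 0.05, the members' median was near 0, and 15 of 30 were above 0. In the cortex 1 of 32 was called (0.969%), as Btg2 fell by 0.80 ± 0.12 on the log2 scale (adjusted p = 0.0358), with a members' median of -0.27 and 6 of 32 above 0. This call was lost when either 5xFAD or either young section was left out, and 14 members were called in the cortex in each fit without 1 aged section, 13 of them lower. In the hippocampus the count was 8 without E3 aged, 6 without E3 5xFAD, 5 without E4 aged and 3 without E3 young, most of them higher in 5xFAD. Above 0 were 17 of 32 members in the thalamus, 7 of 32 in the hypothalamus, 7 of 30 in the cerebral nuclei and 6 of 12 in the fiber tracts. There the fit called Dusp1 in the thalamus (log2 fold change -0.92, 2.01% of genes called), Junb in the hypothalamus (-0.73, 0.291%), Egr2 (-2.76) and Nr4a1 (-1.24) in the cerebral nuclei (1.32%), and 0 of 12 in the fiber tracts (2.83%). The thalamic call was kept in every alternative fit. The hypothalamic call was lost with DESeq2, without TMM, with clusters not centred by section and with equal spots per cluster. It was also lost without E3 5xFAD or either young section. In the cerebral nuclei neither call was kept by DESeq2 or without E4 young, and Egr2 rests on few UMIs. Thalamic Dusp1 had 49.4 and 60.8 CPM in E4 and E3 5xFAD, 122 and 201 CPM in E4 and E3 aged, and 92.8 and 104 CPM in E4 and E3 young, hypothalamic Junb had 36.6 and 32.3 CPM in E4 and E3 5xFAD, 131 and 133 CPM in E4 and E3 aged, and 55.5 and 52.1 CPM in E4 and E3 young, and in the cerebral nuclei Egr2 had 4.06 and 0 CPM in E4 and E3 5xFAD, 7.96 and 12.7 CPM in E4 and E3 aged, and 21.1 and 8.32 CPM in E4 and E3 young, and Nr4a1 73.1 and 38.3 CPM in E4 and E3 5xFAD, 144 and 181 CPM in E4 and E3 aged, and 159.7 and 94.3 CPM in E4 and E3 young.

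Taken by genotype, the hippocampal ratios of 5xFAD over young ran in different directions. With 1 section against 1 there is no test, and a member was counted as past 1.5-fold where its exact 95% counting interval also left out 1, among members whose 2 sections summed to 50 UMIs or more. In the hippocampus 12 of 29 members were past 1.5-fold higher and 1 lower in E4 5xFAD over E4 young, with 4.82% and 1.88% of all genes past the same limits. In E3 5xFAD over E3 young 0 of 24 were higher and 6 lower, with 3.64% and 1.2% of all genes. The E4 ratios were led by Npas4, at 2.70 (interval 2.24 to 3.19) on the log2 scale, Fosb, at 2.51 (interval 1.93 to 3.13), and Gadd45g, at 2.51 (interval 2.21 to 2.82), and the E3 ratios included Fos, at -1.15 (interval -2.08 to -0.29), Junb, at -1.01 (interval -1.43 to -0.60), and Arc, at -0.80 (interval -1.18 to -0.44).

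In the cortex 3 members were past 1.5-fold higher and 3 lower in E4 5xFAD over E4 young (6.67% and 1.34% of genes), and 1 was higher and 8 lower in E3 5xFAD over E3 young (3.8% and 1.02%). Cortical Npas4 was higher in E4 5xFAD than in E4 young, at 1.42 (interval 1.22 to 1.62), and lower in E3 5xFAD than in E3 young, at -1.31 (interval -1.65 to -0.98). Beside these values, 12 of 13 microglia markers rose in 5xFAD cortex and 9 of 13 in hippocampus, 4 of 4 hemoglobin genes fell in cortex (median -3.33), and 12 of 17 genes that follow RNA quality fell in hippocampus (median -0.51). In the cerebral nuclei, where Egr2 and Nr4a1 were called lower, 10 of 10 oligodendrocyte markers fell (median -1.04), as did 10 of 17 genes that follow RNA quality (median -0.43), and 11 of 13 microglia markers rose. In the thalamus and the hypothalamus 11 and 9 of 13 microglia markers rose, and 3 and 2 of 17 genes that follow RNA quality fell (medians -0.50 and -0.43). The part of these lists in the calls was not tested. The 2 5xFAD sections also differ from the other 4 in the prefix of their names, and a run or slide behind it and the transgenes cannot be told apart.

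E4 against E3 over all 3 conditions called 0 members by edgeR in any of the 6 regions. Members with an unadjusted p under 0.05 numbered 7 of 32 in the cortex and 10 of 30 in the hippocampus, where the fit called 0.0134% and 0.11% of all genes. They numbered 4 in the thalamus (0.0149% of genes called), 6 in the hypothalamus (0.0689%), 8 in the cerebral nuclei (0.0646%) and 0 in the fiber tracts (0.0%), and DESeq2 called 0 members as well. These counts changed when a section was left out. In the cortex 12 members were called without E3 aged, 11 of them higher in E4, and 15 without E4 aged, 14 of them higher. In the hippocampus 12 were called without E3 aged, 7 without E4 aged and 8 without E4 young, all of them higher in E4. In the cerebral nuclei 11 were called in each fit without 1 aged section.

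Within conditions the pairs went separate ways, in single sections with no test. In the 5xFAD pair the matrix headers also name different software versions, 2.0.0 for E3 and 1.2.2 for E4, which cannot be told apart from genotype. In the cortex E4 over E3 gave a members' median log2 ratio of 0.60 in 5xFAD, with 17 of 32 past 1.5-fold higher and 0 lower (2.57% and 1.57% of genes), of -0.30 in aged, with 0 higher and 7 lower (3.95% and 3.9%), and of 0.31 in young, with 6 higher and 0 lower (1.09% and 1.23%). In the hippocampus the medians were 0.54 in 5xFAD, with 13 of 28 higher and 1 lower (2.03% and 2.93%), 0.05 in aged, with 3 and 4 of 29 (2.1% and 2.52%), and 0.17 in young, with 2 and 1 of 27 (2.15% and 2.27%). By class, the hippocampal 5xFAD medians were 0.71 for the neuron-selective, 1.02 for the general stress-type and 0.52 for the other inducible members. The cortical ones were 0.44, 0.59 and 0.65 in the same order.

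**Figure D5:**
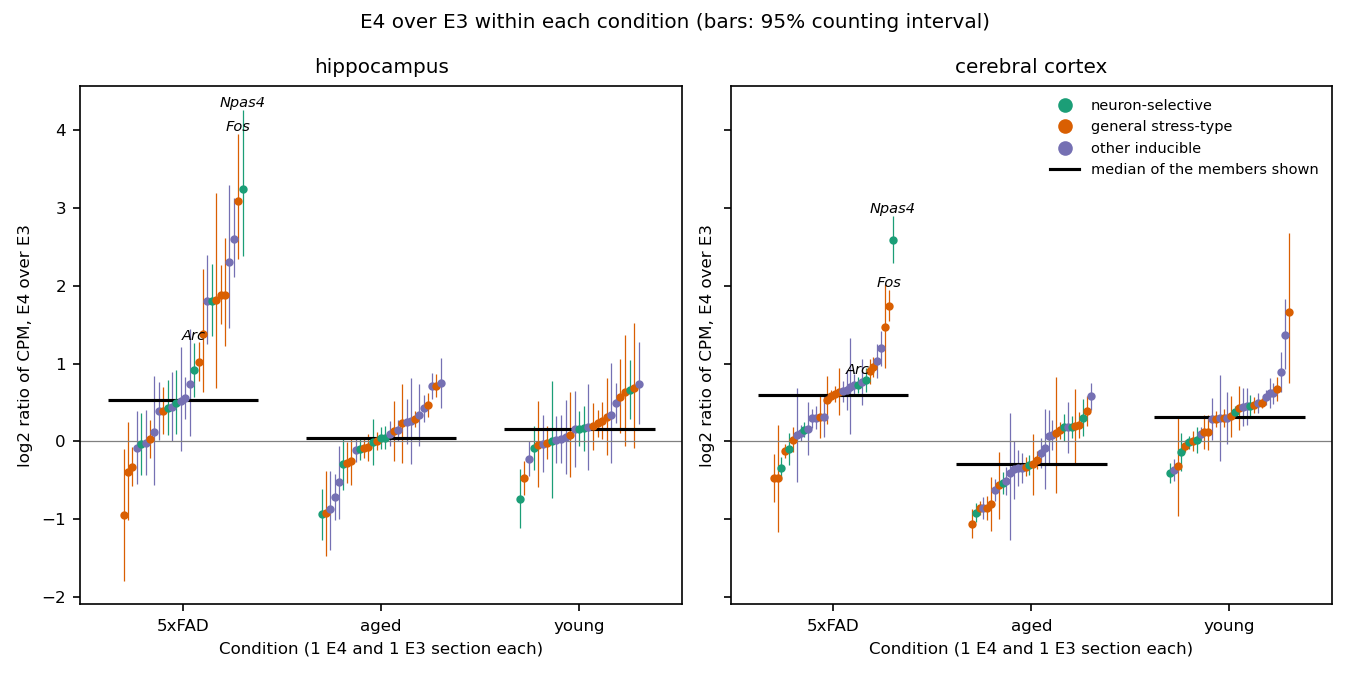
Log2 ratio of CPM, E4 over E3 (y axis), of each member whose 2 sections summed to 50 UMIs or more, within 5xFAD, aged and young (x axis), with 95% counting intervals, colour for class and a line at the median of the points. In the hippocampus the medians are 0.54 in 5xFAD, 0.05 in aged and 0.17 in young, and Npas4 and Fos stand highest in 5xFAD.

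In E4 over E3 5xFAD hippocampus Npas4 had 3.25 (interval 2.38 to 4.27), Fos 3.10 (interval 2.35 to 3.95) and Gadd45g 2.61 (interval 2.12 to 3.13). Arc had 0.91 (interval 0.58 to 1.27) and Egr1 1.02 (interval 0.78 to 1.28), while Jund, at 0.03 (interval -0.22 to 0.28), did not differ beyond counting error. Klf2, a factor of endothelial cells under flow, was the 1 member past 1.5-fold lower, at -0.95 (interval -1.79 to -0.09). In the cortex the ratios were 2.60 (interval 2.30 to 2.90) for Npas4, 1.74 (interval 1.55 to 1.95) for Fos and 0.73 (interval 0.62 to 0.83) for Arc. In the aged pair cortical Arc had -0.92 (interval -1.03 to -0.80) and Ier5 -1.06 (interval -1.24 to -0.87), whereas Npas4 had -0.30 (interval -0.43 to -0.18). The cortical median of the aged pair was -0.10 when the same spots of each cluster were drawn from every section.

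A further term asked whether E4 5xFAD departed from what genotype and condition add up to in the other 5 sections, and left 1 residual degree of freedom. In the cortex it called 1 of 32 members (0.0535% of genes), Npas4, at 2.77 ± 0.22 (adjusted p = 0.000223) on the log2 scale. In the hippocampus it called 5 of 30 (0.0763%), all of them higher than the sum of terms, which were Npas4 at 3.23 ± 0.33 (adjusted p = 0.00135), Fos at 3.10 ± 0.32 (adjusted p = 0.00153), Gadd45g at 2.51 ± 0.24 (adjusted p = 0.00109), Fosb at 2.28 ± 0.36 (adjusted p = 0.0499) and Junb at 1.62 ± 0.21 (adjusted p = 0.0101). Npas4 was also called in the thalamus (2.72, 0.052% of genes), the hypothalamus (1.93, 0.467%) and the cerebral nuclei (3.06, 0.129%), the last together with Fos (2.48), Junb (1.11) and Arc (1.09). In the fiber tracts edgeR called 0 of 12 for this term (0.0817% of genes), 2 of them with an unadjusted p under 0.05.

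The term sets the E4 over E3 difference of the 5xFAD pair against that of the other conditions. It thus rests on 1 section of E4 5xFAD and 1 of E3 5xFAD. A high E4 section and a low E3 section give the same term, and E3 5xFAD had the lowest sum of the members (1173 CPM). What is particular to either mouse, or to the plane of its section, cannot be told apart from E4 together with 5xFAD. Oxt stood in the cortex at 105 and 5.18 CPM in E4 and E3 5xFAD, 0.736 and 1.61 CPM in E4 and E3 aged, and 0.632 and 21.1 CPM in E4 and E3 young and Pmch at 0.206 and 232 CPM in E4 and E3 5xFAD, 90.5 and 150.3 CPM in E4 and E3 aged, and 44.9 and 76.6 CPM in E4 and E3 young, so the genes of the hypothalamic plane moved with the term outside the hypothalamus too. The calls outside cortex and hippocampus were not kept by DESeq2. Summed blood genes stood at 12.2 CPM in the hippocampus of E4 5xFAD and 6.96 CPM in that of E3 5xFAD, and their part was not tested.

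The matrices list human genes beside mouse genes, and UMIs were also assigned to human NPAS4. Human NPAS4 held 1964 UMIs over the 6 sections, which was 15.3% and 18.4% of the mouse and human UMIs together in E4 and E3 5xFAD, 17.3% and 16.2% in E4 and E3 aged, and 10.5% and 19.1% in E4 and E3 young. With both counted, whole-section Npas4 stood at 52.6 and 8.27 CPM in E4 and E3 5xFAD, 147 and 192 CPM in E4 and E3 aged, and 14.8 and 16.6 CPM in E4 and E3 young. The order of the aged sections over E4 5xFAD and of E4 5xFAD over the other 3 was the same with and without these UMIs. For Bdnf the human share was 0.931% to 1.73%.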

How the data were processed

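Visium libraries of 6 sections, 1 per group, were analysed. The deposited values are raw counts made by the authors, UMIs per gene and spot barcode, for which their methods and notes name Space Ranger 1.3.0, STAR 2.5.1b and the builds mm10 and GRCh38. The matrix headers name version 2.0.0 for E3 5xFAD and 1.2.2 for the other 5 sections, and no step was stated for this difference. Of 16979 spots in the deposited tissue masks, the 14524 with a barcode in the matrices were used. Mouse genes and 3 human genes were kept as features, 32288 in all.

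Spots were clustered in Seurat 5.3.0 on 3000 variable genes without the 32 members, centred within sections (20 principal components, 20 neighbours, resolution 0.8), and clusters were named from fixed region markers. A cluster without such a name is called by its leading genes, and 1 such cluster is not reported here. UMIs were summed per region and section and tested with edgeR 4.0.16 (TMM, low-count filter, quasi-likelihood test, R 4.3.3, limma 3.58.1) over all genes, at an adjusted p of 0.05, in regions with at least 20 spots in every section. Errors of log2 fold changes are standard errors. Levels have exact Poisson intervals and pair ratios exact conditional binomial intervals (95%), both for counting error only. With 1 section per group, the spread behind the p-values is the departure of single sections from the additive fit. Differences between mice, technical differences and a genotype effect that varies between conditions all enter it and cannot be told apart. It is not a spread between mice of the same group. Promoters are those of RefSeq. The model was tested on simulated counts.

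Values in every section are given for Npas4, Arc, the members with most UMIs in each role group and every member called. The members, classes and lists were chosen with earlier results of these data known. Alternatives were DESeq2 1.42.0, no TMM, no low-count filter, spots of at least 5000 UMIs, thinned spots, equal spots per cluster, other clusterings, abundant RNAs left out and each section left out in turn. The wider hippocampus, which adds the clusters led by Spink8 and by Slc9a4, and the fit of 4 sections were chosen after seeing the data.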

Additional observations from a re-analysis of the deposited data

Results flagged for a closer look

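Single genes whose E4 over E3 difference in 5xFAD departed from that in the other conditions are listed here, as the term for E4 5xFAD in edgeR's fit was past an adjusted p of 0.05 for them. For Npas4 the term was 2.77 in the cerebral cortex, 3.23 in the hippocampus, 2.72 in the thalamus, 1.93 in the hypothalamus and 3.06 in the cerebral nuclei, on the log2 scale. For Fos it was 3.10 in the hippocampus and 2.48 in the cerebral nuclei, and for Junb 1.62 and 1.11 in the same regions. Gadd45g had 2.51 and Fosb 2.28 in the hippocampus, and Arc had 1.09 in the cerebral nuclei. All 12 values are positive, and the fit left 1 residual degree of freedom. Each value rests on the 1 E4 5xFAD and the 1 E3 5xFAD section, and what is particular to either section cannot be told apart from the term.

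The UMIs on human NPAS4 lie outside the main measurement. They numbered 1964 over the 6 sections, whose labels name no human copy of this gene. No group holds 4 or more sections, so single sections were not tested as outliers.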

How the results depend on the processing

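No pairing by replicate number was possible because each group holds 1 section and every section has the same replicate number. The reported additive fit already sets E4 against E3 within each condition. Over 24 counts and medians, 180 of 230 alternative values stayed within 1.5 times or the counting spread, and 50 did not. Of 878 alternative values for 63 single calls of a member, 114 were no longer past the threshold and 0 changed sign. Mean region levels of Npas4, Arc, Jund, Egr1, Nr4a1, Dusp1, Gadd45g and Ier5 were compared under the other clusterings. In 96 of 96 cases they stayed within a standard deviation over the sections. That spread includes the differences between groups, so the limit was wide, and it did not compare the order of regions. Leaving out 1 section at a time gave, for E4 against E3, 0 to 15 members in the cortex and 0 to 12 in the hippocampus, for aged against young 1 to 16 and 16 to 21, for 5xFAD against young 0 to 14 and 0 to 8, and for the other 4 regions together 19 to 68, where 28 were reported. The term for E4 5xFAD has no such fit, since no residual degree of freedom would remain.

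In the cortex, aged against young called 7 members with DESeq2, 9 without the low-count filter, 9 with equal spots per cluster and 8 in the 4 aged and young sections alone, where 3 were reported. Without the filter, E4 against E3 called 1, 5xFAD against young 4 and the E4 5xFAD term 5, and the term called 4 with equal spots. In the hippocampus, aged against young called 11 with DESeq2 where 19 were reported. E4 against E3 called 7 there without the filter, 1 with clusters not centred by section, 2 with members among the clustering genes and 2 in the wider hippocampus. 5xFAD against young called 3 without TMM, 7 without the filter, 5 with clusters not centred, 3 with members among the clustering genes, 2 with equal spots and 4 in the wider hippocampus, and the term called 10 without the filter. The other 4 regions together gave 15 with DESeq2 and 60 without the filter. With equal spots the cortical median log2 ratio of the members was -0.0965 for E4 over E3 aged, 0.0868 for E4 5xFAD over E4 young and 0.342 for E4 aged over E4 young, and with spots thinned to 5000 UMIs the hippocampal one for E4 5xFAD over E4 young was 0.514. The cause of these shifts was not tested. Spots of at least 5000 UMIs could not be fitted for fiber tracts. Npas4 in the hippocampus of E3 5xFAD rested on 11 UMIs, which limits the depth of every ratio to that section.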

Other observations

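Genes outside the list followed it closely over regions and sections. Over 30 sums of 5 regions and 6 sections, centred within region, 7315 genes of sufficient level were set beside the mean of the neuron-selective class. The 10 with the highest Pearson correlation were Gm13889 (0.844), Rgs2 (0.829), Plk2 (0.773), Hbb-bs (0.771), Cited2 (0.757), Spry2 (0.74), Fam133b (0.716), Rock1 (0.714), 1810026B05Rik (0.703) and Pfn1 (0.699). The mean of the general stress-type class had Gm13889 (0.84) and Rgs2 (0.83) in the same first places. Sums of 1 section share a library and its depth, so the correlations are descriptions. Rgs2, Plk2 and Spry2 are known as activity-regulated genes, and Hbb-bs is the beta chain of hemoglobin.

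In whole sections, Npas4 and Fos were highest in both aged sections, while Arc in E4 aged was just below E4 young, as in the cortex. The E4 aged section held the fewest cortical spots, and the part of this in its whole-section levels was not tested. Npas4 stood at 44.5 and 6.75 CPM in E4 and E3 5xFAD, 121 and 161 CPM in E4 and E3 aged, and 13.3 and 13.4 CPM in E4 and E3 young, Arc at 106 and 57.7 CPM in E4 and E3 5xFAD, 122 and 217 CPM in E4 and E3 aged, and 126 and 91.6 CPM in E4 and E3 young and Fos at 55.6 and 18.0 CPM in E4 and E3 5xFAD, 149 and 206 CPM in E4 and E3 aged, and 46.6 and 31.6 CPM in E4 and E3 young. All 32 members summed to 1730.4 and 1173 CPM in E4 and E3 5xFAD, 2322 and 3009 CPM in E4 and E3 aged, and 1724 and 1425 CPM in E4 and E3 young. The E3 5xFAD section was the lowest and E3 aged the highest of the 6 in this sum.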
